A study of Mus musculus with 35 samples.

Results

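The comparison described here is between the granulocytic and the monocytic subset of myeloid-derived suppressor cells (MDSC) of the spleen, in tumor-bearing mice that received no immunostimulatory RNA. It rests on 8 of the 35 libraries of the series, 4 of polymorphonuclear MDSC (PMN-MDSC) and 4 of monocytic MDSC (M-MDSC), chosen by the compartment, subset and treatment in their labels. Of 53379 gene identifiers, the 8579 whose counts averaged 25 or more over these 8 libraries were tested. The mice were female and of strain C57BL/6, and they carried orthotopic pancreatic tumors of T110299, a single cell line derived from the KPC model of pancreatic cancer. Wild type mice were bought at an age of 6 to 12 weeks. The mice are labelled untreated. The protocol names intravenous glucose on days 18 and 20 after tumor induction as the control of poly(I:C), a synthetic double-stranded RNA complexed with polyethylenimine, while the study calls the mice of this experiment untreated, so whether they received glucose is not settled by these sources. After magnetic enrichment for CD11b+ cells, live cells were sorted by flow cytometry as Ly6C-low Ly6G+ PMN-MDSC or Ly6C-high Ly6G- M-MDSC. A further 2 pairs of groups served to place the difference between the subsets: the same subsets of tumors of untreated mice (8 libraries) and of spleens of mice that received poly(I:C) (7 libraries).

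MDSC are myeloid cells that accumulate in cancer and other chronic inflammation and are defined by their ability to suppress T cells. PMN-MDSC share surface antigens and much of their program with neutrophils, which fill their granules in successive waves (azurophil, then specific, then gelatinase granules) while they mature and which migrate toward chemokines and formyl peptides. M-MDSC resemble inflammatory monocytes, which leave the bone marrow by the chemokine receptor CCR2 and can become macrophages or dendritic cells. Both arise from common myeloid progenitors, in which the transcription factor IRF8 favors the monocytic and the C/EBP factors the granulocytic fate.

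Levels are CPM, the counts of a gene relative to those of its library, scaled by library total and by the TMM factor of each library, and 4 values in a row stand for libraries 1 to 4. Levels of different genes are compared only as FPKM, which divide by the summed exon length. A log2 fold change is PMN-MDSC minus M-MDSC, and a gene is called higher in 1 subset if its adjusted p was under 0.001 and its change at least 2-fold (edgeR's quasi-likelihood F-test, Benjamini-Hochberg adjustment). Titles of the samples carry numbers that the 4 sorted fractions share, as of mice, but the columns of the count table carry running numbers in their place. Libraries 1 to 4 therefore stand in the order of the columns, the numbers were not used to pair the subsets, and p-values measure the unpaired spread between these libraries. Where leaving out 1 library ended or gave a call, the libraries stand in parentheses as P1 to P4 for PMN-MDSC and M1 to M4 for M-MDSC, with the highest adjusted p without any of them. Where a call was lost and that p is under 0.001, the change had fallen under 2-fold. The libraries held 2008010 to 3769395 counts in PMN-MDSC and 1896132 to 4200907 in M-MDSC, and a count of 0 in a library allows a level of up to 0.607 to 1.80 CPM. Reads were amplified by PCR without molecular identifiers, so such limits and intervals cover counting error only. Because the RNA is of many cells, fewer cells of a type and less RNA per cell cannot be told apart.

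The sorted populations carried the programs of their labels. All 11 neutrophil markers were higher in each PMN-MDSC than in each M-MDSC library and 8 were called, with summed levels of 26654 to 49727 CPM against 3724 to 8985 CPM. Of 10 monocyte markers, 9 were higher in each M-MDSC library and 6 were called, with summed levels of 3849 to 5041 CPM against 702 to 1498 CPM. Ly6g, the transcript of the antigen used for sorting, stood at 37.4, 62.3, 97.1 and 56.1 CPM in PMN-MDSC against 2.80, 0.421, 1.44 and 3.64 CPM in M-MDSC (log2 fold change 4.77 ± 0.46 (SE), adjusted p = 2.51e-05). The groups did not overlap. Ly6c2, which encodes the Ly6C antigen of monocytes, stood at 44.0, 67.7, 114 and 64.4 CPM in PMN-MDSC against 114, 183, 105 and 101 CPM in M-MDSC (log2 fold change -0.79 ± 0.30 (SE), adjusted p = 0.038). PMN-MDSC library 3 lay above M-MDSC libraries 3 and 4, and the gene was not called, although the cells were separated by Ly6C staining. Its neighbor Ly6c1 is nearly identical in sequence and was below the count limit. Itgam, which encodes CD11b, was higher in PMN-MDSC (1.36 ± 0.14, adjusted p = 3.76e-05), and Ptprc, which encodes CD45, was not called (0.62 ± 0.38, adjusted p = 0.17).

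**Figure D1:**
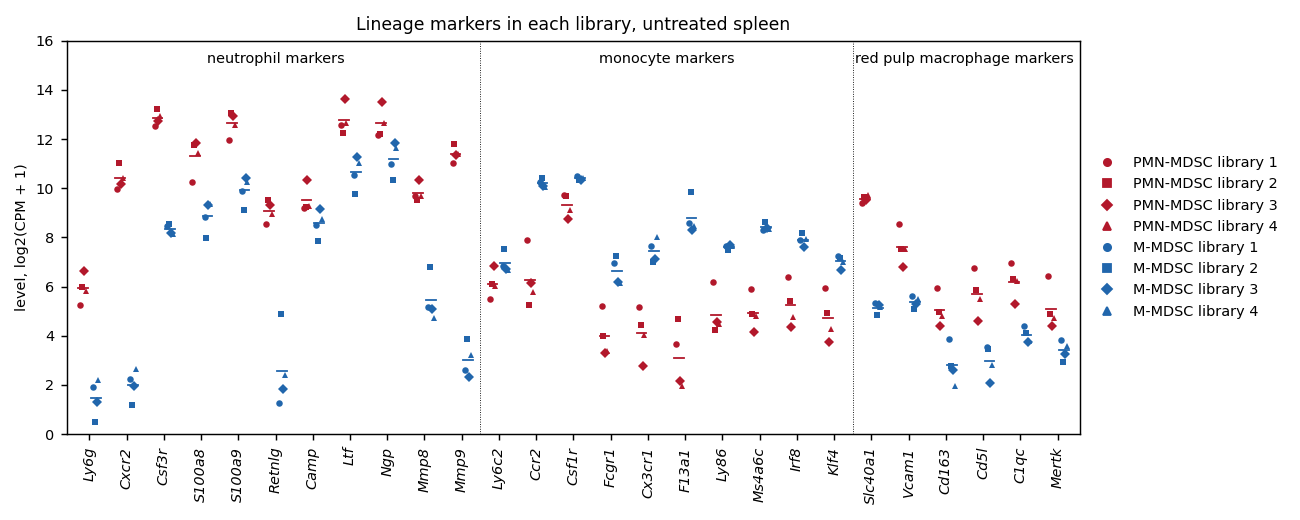
Level of markers of neutrophils, monocytes and red pulp macrophages, as log2(CPM + 1), in each of the 4 PMN-MDSC (red) and 4 M-MDSC (blue) libraries of untreated spleens, with the symbol shape marking the library and a short line the mean. All 11 neutrophil markers are higher in every PMN-MDSC library, while Ly6c2 overlaps between the subsets and Slc40a1 is higher in every PMN-MDSC library.

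Among the PMN-MDSC, 2 libraries stood apart. Library 1 correlated with the M-MDSC libraries at a median r of 0.772 (log2 CPM across genes), against 0.641 to 0.683 for the other 3, and held monocyte and antigen presentation transcripts above theirs, for example Ccr2 at 239 CPM against 37.2 to 70.3 CPM. Library 2 had the lowest Ptprc level, 957 CPM against 3692 to 4335 CPM, and the lowest level of Mki67, a gene of cycling cells, at 22.8 CPM against 192 to 336 CPM. Markers of red pulp macrophages, the iron-recycling macrophages of the spleen, moved with the PMN-MDSC. Of 11 such markers 4 were called higher in PMN-MDSC and none in M-MDSC. Their summed levels were 1231 to 2429 CPM against 282 to 489 CPM in M-MDSC, with the highest sum in library 1. The iron exporter Slc40a1 stood at 684, 788, 740.1 and 845 CPM in PMN-MDSC against 39.2, 27.3, 37.4 and 35.0 CPM in M-MDSC, which do not overlap. Spic, the factor that defines these macrophages, did not differ beyond its error (0.14 ± 0.44, adjusted p = 0.79). Vcam1 (2.40 ± 0.34), C1qc (2.37 ± 0.34) and Cd5l (2.99 ± 0.51) were the other called markers, and the share of this cell type in the differences below was not tested. The number of markers called in PMN-MDSC ranged from 1 (without M-MDSC libraries 2, 3 or 4) to 6 (without PMN-MDSC library 3), and DESeq2 called 8. Calls of Vcam1 (M1 to M4, 0.0016), C1qc (M2, M3, M4, 0.0019) and Cd5l (P2, P4, M1 to M4, 0.0044) were lost without single libraries. Siglecf, a marker of eosinophils, was higher in PMN-MDSC (3.59 ± 0.44, adjusted p = 9.79e-05), as was Krt7, an epithelial keratin (2.21 ± 0.34, adjusted p = 4.31e-04). The call of Krt7 was lost without single libraries (P4, M1 to M4, 0.0023). No T cell, NK cell, platelet or basophil marker reached the count limit. Of 5 tested B cell and 3 tested erythroid markers edgeR called 0, although 3 and 3 had an unadjusted p under 0.05, all higher in PMN-MDSC, and DESeq2 called 1 and 2 of them. Summed levels of the erythroid markers were 83.9 to 241 CPM in PMN-MDSC and 30.7 to 64.0 CPM in M-MDSC, and those of the B cell markers 177 to 292 CPM and 109 to 223 CPM. Of 9 dendritic cell markers 3 were tested and 1 called, Bst2, which encodes the interferon-induced tetherin and was higher in M-MDSC (-1.82 ± 0.29, adjusted p = 5.35e-04). Cd209a, another tested member, was not called by edgeR but had an unadjusted p under 0.05 and was higher in PMN-MDSC (log2 fold change 1.88). The summed levels of the dendritic cell markers were 38.8 to 89.8 CPM in PMN-MDSC and 27.3 to 46 CPM in M-MDSC. The part of these cell types in the differences below was not tested. The call of Bst2 was lost without single libraries (P3, P4, M1 to M4, 0.0034).

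Of the 8579 tested genes, 1228 were higher in PMN-MDSC (14.3%) and 765 in M-MDSC (8.92%). These shares are the background against which the numbers called in each list below are to be read. The lists were chosen with earlier results of these data known. Their numbers therefore describe the lists and are no independent test. In 2415 genes (28.2%) every PMN-MDSC library lay above every M-MDSC library, and in 2661 (31%) the reverse held. The balance between the directions depended on the scaling. The TMM factors were 0.831 to 0.922 in PMN-MDSC and 1.10 to 1.18 in M-MDSC, and the median log2 fold change of all tested genes was -0.08 with them, -0.33 with upper-quartile scaling and -0.45 with library totals alone. Of the called genes, 61.6% were higher in PMN-MDSC, against 41.7% and 35.2% with these 2 scalings. The median of a list below is therefore to be read against the median of all genes. The number called in M-MDSC also depended on single libraries, with 1418 genes without PMN-MDSC library 1 and 290 without PMN-MDSC library 4, when 1368 and 947 were called in PMN-MDSC.

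**Figure D2:**
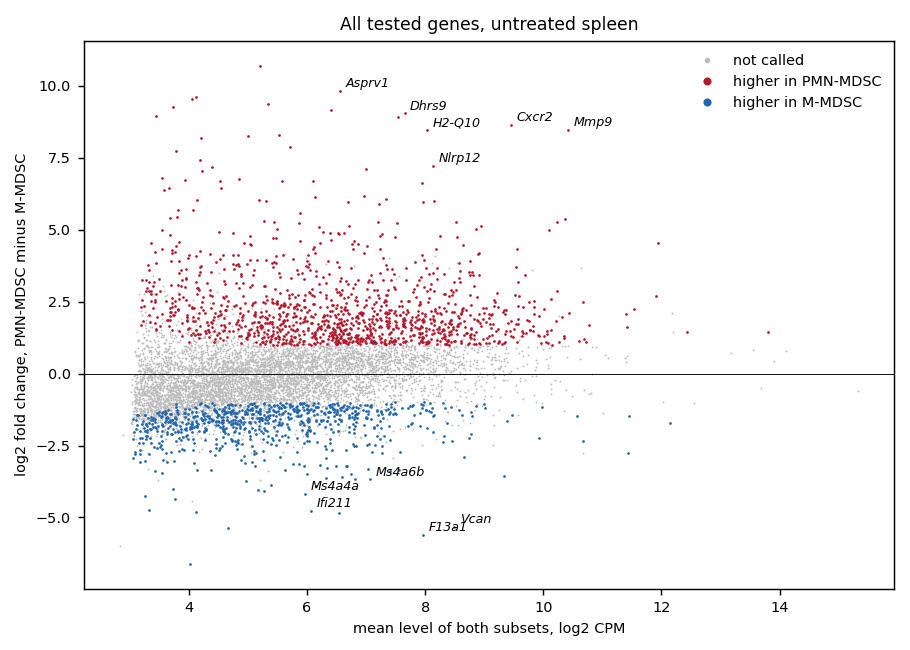
Log2 fold change of each of the 8579 tested genes, PMN-MDSC minus M-MDSC, against the log2 of the mean CPM of both subsets, with the 1228 genes called higher in PMN-MDSC in red and the 765 called higher in M-MDSC in blue. The called genes with the largest changes reach further above 0 than below it.

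The 10 largest increases in PMN-MDSC among called genes with non-overlapping libraries and a mean of at least 100 CPM were Asprv1, Steap4, Dhrs9, Il1f9, Cxcr2, Mmp9, H2-Q10, Gm39321, Nlrp12 and Gm37347. The skin protease gene Asprv1 stood at 101, 371, 152 and 131 CPM in PMN-MDSC against 0, 0, 0.360 and 0.202 CPM in M-MDSC, which is 1007-fold (95% counting interval 278 to 8322) higher in PMN-MDSC. Steap4, a metalloreductase gene, was 604-fold (95% counting interval 206 to 2934) higher. Both were almost absent from M-MDSC, with 2 and 3 counts over the 4 libraries. Mmp9, the gelatinase that gives the last class of granules its name, stood at 2068, 3568, 2614 and 2707 CPM in PMN-MDSC against 5.13, 13.5, 3.96 and 8.30 CPM in M-MDSC (log2 fold change 8.46 ± 0.41 (SE), adjusted p = 9.68e-07). Il1f9, an interleukin-1 family cytokine (8.91 ± 0.38), and Nlrp12, a NOD-like receptor (7.22 ± 0.54), were also among them. Dhrs9, a retinol dehydrogenase gene, differed by 9.04 ± 0.48 and the class I-like H2-Q10 by 8.46 ± 0.41. H2-Q10 belongs to a family of near-identical genes between which reads can be split.

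Among the 10 largest increases in M-MDSC under the same rule were F13a1, Vcan, Arhgef37, Ifi211, Ms4a4a, Ms4a4c, Ms4a6b, Ptpro and Tppp3. F13a1, the coagulation factor XIII subunit of monocytes and platelets, stood at 11.5, 24.6, 3.49 and 2.90 CPM in PMN-MDSC against 385, 917, 312 and 351 CPM in M-MDSC (log2 fold change -5.61 ± 0.67 (SE), adjusted p = 8.88e-05). Vcan, the matrix proteoglycan versican, stood at 37.4, 17.4, 9.32 and 5.07 CPM in PMN-MDSC against 582, 1187, 648 and 395 CPM in M-MDSC (log2 fold change -5.32 ± 0.61 (SE), adjusted p = 7.20e-05). Neither gene overlapped between the subsets. Ptpro, a receptor tyrosine phosphatase, differed by -3.66 ± 0.30 and the interferon-inducible Ifi211 by -4.77 ± 0.45.

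By level per length, the most abundant transcripts were partly shared. S100a9, a subunit of the antimicrobial calprotectin, stood at 12711 FPKM in PMN-MDSC and 1966 FPKM in M-MDSC and was the most abundant transcript of PMN-MDSC. Lyz2, the lysozyme gene of myeloid cells, stood at 2979 FPKM in PMN-MDSC and 6093 FPKM in M-MDSC, was the most abundant transcript of M-MDSC and was not called (-1.03 ± 0.19, adjusted p = 0.0012). Ngp, a specific granule protein, was among the most abundant of both subsets, at 5630.5 FPKM in PMN-MDSC and 2065 FPKM in M-MDSC (1.45 ± 0.39, adjusted p = 0.0088). S100a9 and Ngp, both on the neutrophil marker list, were thus among the most abundant transcripts of the M-MDSC libraries. Their source in these libraries was not tested.

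The azurophil granule is the first to form, in promyelocytes, and its 3 called members, Elane, Mpo and Prtn3, were higher in M-MDSC. Elane, neutrophil elastase, stood at 0, 0.599, 0 and 0.724 CPM in PMN-MDSC against 19.1, 26.1, 52.2 and 31.2 CPM in M-MDSC, which is 115-fold (95% counting interval 39.0 to 559) higher in M-MDSC. Mpo, myeloperoxidase, stood at 0.288, 1.20, 3.11 and 0.362 CPM in PMN-MDSC against 31.7, 34.5, 91.8 and 38.9 CPM in M-MDSC (log2 fold change -5.35 ± 0.62 (SE), adjusted p = 7.25e-05). Prtn3, proteinase 3, stood at 1.15, 1.80, 0 and 0 CPM in PMN-MDSC against 13.5, 20.6, 27.4 and 15.4 CPM in M-MDSC (log2 fold change -4.75 ± 0.60 (SE), adjusted p = 1.29e-04). All 3 were low in M-MDSC and near 0 in PMN-MDSC, and their libraries did not overlap. They passed the count limit through their M-MDSC counts alone, so that their number is no measure of the class, and none of them reached 10 counts in every library. Serpinb1a, an inhibitor of these proteases, was not called (0.75 ± 0.39, adjusted p = 0.12), and Ctsg, Prss57, Ms4a3 and Bpi were below the count limit. Of 8 markers of progenitors 3 were tested (Kit, Flt3 and Myb) and 0 called by edgeR (Kit had an unadjusted p under 0.05 and was called by DESeq2), with summed levels of 45.6 to 73.4 CPM in PMN-MDSC and 27.8 to 56.9 CPM in M-MDSC, and their part in the azurophil difference was not tested. Kit gained a call without single libraries (P1, P2, 9.54e-04).

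Of the specific granule genes, 3 of 10 tested were higher in PMN-MDSC and 0 in M-MDSC (median log2 fold change 1.59), and DESeq2 called 6 in PMN-MDSC. The neutrophil collagenase Mmp8 stood at 813, 727, 1281 and 822 CPM in PMN-MDSC against 35.5, 109, 33.5 and 25.5 CPM in M-MDSC (log2 fold change 4.17 ± 0.47 (SE), adjusted p = 6.61e-05). M-MDSC library 2 was the highest of its group at 109 CPM. Olfm4, olfactomedin 4, differed by 3.12 ± 0.28 and Cd177, a surface antigen stored in these granules, by 1.74 ± 0.29. The call of Cd177 was lost without single libraries (P4, M1 to M4, 0.0032). Lactoferrin (Ltf), the most prominent protein of this class, stood at 6065, 4897, 12535 and 6462 CPM in PMN-MDSC against 1502, 859, 2450.3 and 2096 CPM in M-MDSC and missed the threshold (log2 fold change 2.12 ± 0.38 (SE), adjusted p = 0.001001), with PMN-MDSC library 3 above the other libraries of its group. The groups did not overlap. Camp, the cathelicidin gene, stood at 583, 599, 1294 and 619.8 CPM in PMN-MDSC against 367, 229, 572 and 427 CPM in M-MDSC (log2 fold change 0.96 ± 0.33 (SE), adjusted p = 0.028), and its lowest PMN-MDSC library lay just above its highest M-MDSC library. The gelatinase granule and secretory genes were higher in PMN-MDSC in 7 of 7 tested cases (median 2.83), from Hp, haptoglobin (1.74 ± 0.28), to Mmp9. Adam8, a metalloprotease, differed by 4.78 ± 0.32 and Mmp25, a membrane-bound metalloproteinase, by 4.43 ± 0.26. The call of Hp was lost without single libraries (P3, P4, M1, M3, M4, 0.0035).

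**Figure D3:**
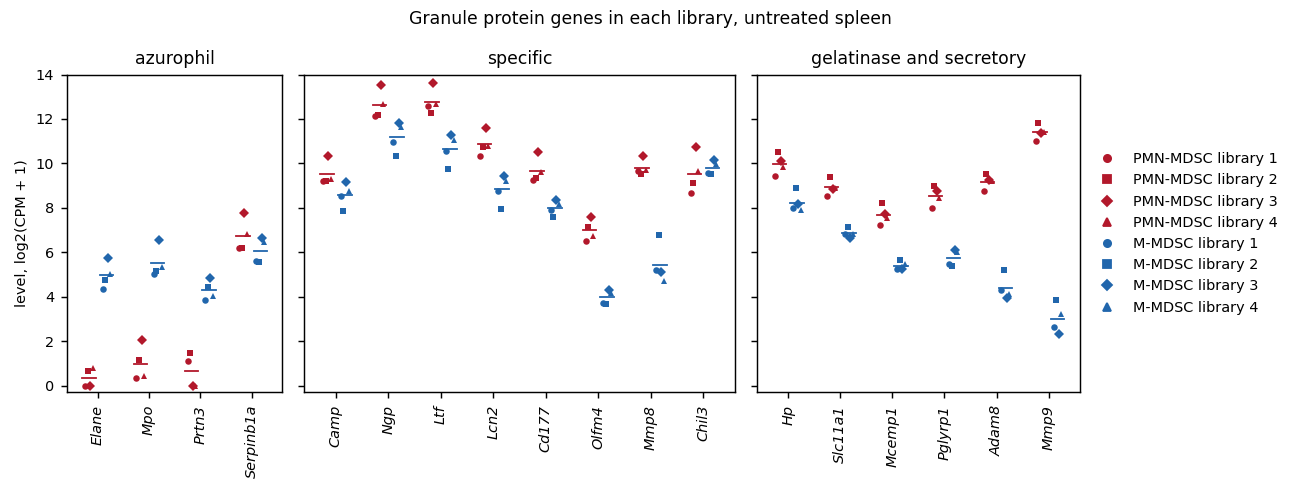
Level of granule protein genes by granule class, as log2(CPM + 1), in each PMN-MDSC (red) and M-MDSC (blue) library of untreated spleens, with the shape marking the library and a short line the mean. Elane, Mpo and Prtn3 are higher in every M-MDSC library, Serpinb1a overlaps between the subsets, and Mmp9 is higher in every PMN-MDSC library.

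The promoters of these genes and of 3 markers of PMN-MDSC are shown because they let the regulatory letters of genes that moved in opposite directions be compared. Each run holds the 250 bases before and the first 50 bases after the start of the gene in RefSeq (GRCm38.p6), 5′ to 3′ on the strand of the gene. The letters in capitals are GAGGAAG, which the myeloid factor PU.1 can bind, TTGCNNAA, read on either strand and bound by C/EBP factors, and GAAANNGAA, an interferon response-like motif. The windows are chr10:79886062-79886361, chr10:79879417-79879716 and chr11:87793534-87793833 for the genes higher in M-MDSC and chr4:126024409-126024708, chr15:75155011-75155310 and chr3:90695672-90695971 for those higher in PMN-MDSC, the last on the minus strand and all others on the plus strand. Ly6g has a second start in RefSeq, and the first is shown.
Elane: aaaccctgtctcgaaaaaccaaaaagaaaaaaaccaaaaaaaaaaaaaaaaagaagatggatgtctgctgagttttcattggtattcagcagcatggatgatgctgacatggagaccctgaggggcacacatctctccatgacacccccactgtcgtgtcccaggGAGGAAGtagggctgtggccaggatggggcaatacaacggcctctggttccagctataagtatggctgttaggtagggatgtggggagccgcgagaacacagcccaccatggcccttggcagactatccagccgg
Prtn3: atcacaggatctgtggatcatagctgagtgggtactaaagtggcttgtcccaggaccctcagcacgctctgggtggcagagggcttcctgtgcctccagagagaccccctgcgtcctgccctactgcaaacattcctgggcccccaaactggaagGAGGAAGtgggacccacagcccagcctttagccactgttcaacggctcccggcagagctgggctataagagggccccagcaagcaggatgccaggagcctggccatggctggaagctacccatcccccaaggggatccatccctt
Mpo: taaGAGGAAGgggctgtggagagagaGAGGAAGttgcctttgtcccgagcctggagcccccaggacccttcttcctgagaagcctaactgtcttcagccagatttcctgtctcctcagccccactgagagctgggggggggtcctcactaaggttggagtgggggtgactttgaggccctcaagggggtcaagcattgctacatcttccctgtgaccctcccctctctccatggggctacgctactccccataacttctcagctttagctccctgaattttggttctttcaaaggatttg
Csf3r: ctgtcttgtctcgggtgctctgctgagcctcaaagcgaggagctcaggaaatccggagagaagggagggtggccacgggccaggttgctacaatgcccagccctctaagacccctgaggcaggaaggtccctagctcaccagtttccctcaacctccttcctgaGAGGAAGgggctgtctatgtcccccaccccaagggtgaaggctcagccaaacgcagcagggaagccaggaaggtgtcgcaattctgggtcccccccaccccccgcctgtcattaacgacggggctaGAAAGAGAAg
Ly6g: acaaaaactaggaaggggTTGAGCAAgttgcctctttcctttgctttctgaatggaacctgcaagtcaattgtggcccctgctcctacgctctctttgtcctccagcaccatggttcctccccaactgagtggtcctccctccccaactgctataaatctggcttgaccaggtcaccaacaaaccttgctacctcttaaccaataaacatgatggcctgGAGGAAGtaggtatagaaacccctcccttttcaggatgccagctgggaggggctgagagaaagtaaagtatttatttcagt
S100a9: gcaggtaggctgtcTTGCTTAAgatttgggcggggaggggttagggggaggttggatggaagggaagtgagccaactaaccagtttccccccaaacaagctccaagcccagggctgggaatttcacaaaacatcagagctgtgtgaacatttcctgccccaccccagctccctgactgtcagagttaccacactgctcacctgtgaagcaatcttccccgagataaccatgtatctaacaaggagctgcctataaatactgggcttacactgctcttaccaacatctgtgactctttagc
GAGGAAG occurred at position -85 of Elane, -95 of Prtn3, -247 and -224 of Mpo, -86 of Csf3r and -31 of Ly6g, counted from the start of the gene as 0, and not in this window of S100a9. TTGCNNAA occurred at -232 of Ly6g and -236 of S100a9, and GAAANNGAA at 40 of Csf3r. Genes higher in M-MDSC and genes higher in PMN-MDSC thus both carried GAGGAAG. Among the 6449 tested genes with a promoter sequence, 17.4% held GAGGAAG on either strand, against 22.6% of 933 promoters of genes higher in PMN-MDSC and 18.3% of 551 of those higher in M-MDSC. TTGCNNAA was found in 10.0% of all, in 11.6% for PMN-MDSC and in 10.5% for M-MDSC. GAAANNGAA was found in 9.29%, 9.97% and 10.9%, and the TATAAA of the TATA box in 8.47%, 11.8% and 7.44%. A match is no proof of binding, and no test was run on these shares.

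Most members of the list of neutrophil surface receptors were higher in PMN-MDSC. Of the neutrophil surface and chemotactic receptors, 23 of 26 tested members were higher in PMN-MDSC and 0 in M-MDSC (median log2 fold change 3.62). The chemokine receptor Cxcr2, which draws neutrophils from the marrow, stood at 1004, 2080.2, 1156 and 1368 CPM in PMN-MDSC against 3.73, 1.26, 2.88 and 5.26 CPM in M-MDSC (log2 fold change 8.63 ± 0.42 (SE), adjusted p = 9.68e-07). The G-CSF receptor Csf3r stood at 5935, 9521, 6807 and 7870.3 CPM in PMN-MDSC against 349.6, 376, 291 and 282 CPM in M-MDSC (log2 fold change 4.54 ± 0.21 (SE), adjusted p = 8.09e-07). The libraries of both genes were far from overlapping. Il1r2, the decoy receptor of interleukin-1, differed by 5.94 ± 0.30 and Clec4d, a C-type lectin of myeloid cells, by 5.90 ± 0.22. The 3 members not called were Clec5a (1.80 ± 0.38), Ltb4r1 (0.89 ± 0.21) and Ceacam1 (0.43 ± 0.18). Clec5a (P2, 6.90e-06) and Ltb4r1 (P1, 6.89e-04) gained calls without single libraries.

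Cytosolic proteins and secreted mediators of neutrophils behaved in the same way. Of these, 22 of 23 tested members were higher in PMN-MDSC and 0 in M-MDSC (median log2 fold change 3.50). The cystatin-like Stfa2l1 was listed with 0 counts in all M-MDSC libraries and was at least 277-fold higher in PMN-MDSC, at 44.0 to 110 CPM. It belongs to a cluster of near-identical genes between which reads can be split. Il1f9 and Asprv1, described above, were next by size of the change. Il1b, the inflammatory cytokine, stood at 1574, 3280.4, 1895 and 2599.6 CPM in PMN-MDSC against 75.6, 50.5, 57.2 and 60.7 CPM in M-MDSC (log2 fold change 5.26 ± 0.28 (SE), adjusted p = 1.44e-06). Even the lowest PMN-MDSC library was far above the highest M-MDSC library. S100a9 stood at 4029.8, 8578, 7895 and 6038 CPM in PMN-MDSC against 956, 559, 1374 and 1216 CPM in M-MDSC (log2 fold change 2.69 ± 0.33 (SE), adjusted p = 9.45e-05), and its partner S100a8 differed by 2.48 ± 0.39. The call of S100a8 was lost without single libraries (P2, P3, P4, M1 to M4, 0.0029). The exception was Wfdc17, a secreted protease inhibitor-like protein (-0.12 ± 0.31, adjusted p = 0.74).

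Chemokine receptors were called in both directions. In PMN-MDSC, Cxcr2, Ccr1 (4.31 ± 0.32) and Cxcr4, the receptor that retains cells in the marrow (2.94 ± 0.25), were higher. In M-MDSC, Ccr2 stood at 239, 37.2, 70.3 and 53.9 CPM in PMN-MDSC against 1206, 1381, 1095 and 1061 CPM in M-MDSC (log2 fold change -3.55 ± 0.54 (SE), adjusted p = 3.73e-04). PMN-MDSC library 1 held more Ccr2 than the other 3 of its group, and no PMN-MDSC library reached the M-MDSC. Cx3cr1, the fractalkine receptor, stood at 35.4, 20.4, 5.82 and 15.2 CPM in PMN-MDSC against 201, 128, 139 and 261 CPM in M-MDSC (log2 fold change -3.23 ± 0.46 (SE), adjusted p = 2.44e-04). Calls of Ccr2 (P3, P4, M1 to M4, 0.0015) and Cx3cr1 (P4, M1, 0.0015) were lost without single libraries. Among the hematopoietic cytokine receptors, 3 of 18 tested members were higher in PMN-MDSC and 2 in M-MDSC (median log2 fold change 0.47), shares near the 14.3% and 8.92% of all tested genes. The first number ranged from 3 (without PMN-MDSC libraries 3 or 4 or M-MDSC libraries 1 to 4) to 5 (without PMN-MDSC library 1) when 1 library was left out. Csf3r, Il1r2 and the interleukin-1 receptor antagonist Il1rn (2.62 ± 0.25) were higher in PMN-MDSC, and the interleukin-6 signal transducer Il6st (-2.47 ± 0.33) and the interferon-γ receptor chain Ifngr1 (-1.19 ± 0.17) in M-MDSC. Csf1r, the receptor of M-CSF and a marker of monocytes, was at 857, 821, 429 and 556 CPM in PMN-MDSC against 1455, 1282, 1294 and 1383 CPM in M-MDSC and missed the threshold (log2 fold change -1.02 ± 0.22 (SE), adjusted p = 0.0024), although its groups did not overlap. The call of Ifngr1 was lost without single libraries (P3, P4, M1, M3, 0.0022). Csf1r gained a call without single libraries (P1, 9.31e-04).

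Of the granulocytic factors, 5 of 11 tested members were higher in PMN-MDSC and 1 in M-MDSC (median log2 fold change 1.42), the second share being near the 8.92% of all tested genes. Cebpd, a C/EBP factor induced late and by inflammation (2.78 ± 0.30), the AP-1 member Junb (2.67 ± 0.26) and Klf5 (2.49 ± 0.26) were higher in PMN-MDSC. Cebpa, the C/EBP factor of early granulocytic commitment, went against the list's name and was higher in M-MDSC, at 66.7, 71.9, 53.2 and 32.2 CPM in PMN-MDSC against 147, 199.8, 147 and 120.0 CPM in M-MDSC (log2 fold change -1.45 ± 0.25 (SE), adjusted p = 8.43e-04). Cebpe, which drives specific granule genes, was not called (0.91 ± 0.29, adjusted p = 0.019), and Gfi1 was below the count limit. The call of Cebpa was lost without single libraries (P1, P3, P4, M1 to M4, 0.0045).

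Of the monocytic factors, 5 of 24 tested members were higher in PMN-MDSC and 5 in M-MDSC (median log2 fold change -0.37), against 14.3% and 8.92% of all tested genes. Irf8 stood at 82.6, 42, 19.4 and 26.4 CPM in PMN-MDSC against 239.9, 289, 193 and 241 CPM in M-MDSC (log2 fold change -2.48 ± 0.40 (SE), adjusted p = 5.06e-04). Its groups did not overlap, with PMN-MDSC library 1 the highest of its group. Tfec, a relative of MITF (-2.60 ± 0.46), Tcf4 (-2.27 ± 0.40), Irf5 (-1.47 ± 0.22) and Runx3 (-1.17 ± 0.19) were the other members higher in M-MDSC. The members higher in PMN-MDSC were the immediate-early genes Fos (3.35 ± 0.50), Egr1 (2.7 ± 0.45) and Jun (1.71 ± 0.24), besides Klf2 (1.76 ± 0.28) and Spi1, which encodes PU.1 and serves both lineages (1.13 ± 0.19). Fos stood at 287, 611, 459 and 425 CPM in PMN-MDSC against 30.3, 98.0, 29.9 and 18.6 CPM in M-MDSC. The M-MDSC library with the most Fos, library 2, stayed well under the PMN-MDSC. None of these calls held in every fit that left out 1 library. The number called in M-MDSC ranged from 0 (without PMN-MDSC library 4 or M-MDSC libraries 1 to 4) to 8 (without PMN-MDSC library 1). That in PMN-MDSC ranged from 0 (without PMN-MDSC library 4 or M-MDSC libraries 1 or 4) to 5 (without PMN-MDSC library 1). The latter was 5 with DESeq2, 3 with upper-quartile scaling and 2 with library totals. Calls of Irf8 (P2, P4, M1 to M4, 0.0022), Tfec (P2, P3, P4, M1 to M4, 0.0035), Tcf4 (P3, P4, M1 to M4, 0.0035), Irf5 (P4, M1 to M4, 0.0024), Runx3 (P2, P3, P4, M1 to M4, 0.003), Fos (P4, M1, M3, M4, 0.0021), Egr1 (P2, P3, P4, M1 to M4, 0.0028), Jun (P4, M1, M2, M4, 0.0014), Klf2 (P2, P3, P4, M1, M3, M4, 0.003) and Spi1 (P2, P3, P4, M1 to M4, 0.005) were lost without single libraries.

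Of the monocyte surface receptors, 5 of 30 tested members were higher in PMN-MDSC and 7 in M-MDSC (median log2 fold change -0.43). The first share is near the 14.3% of all tested genes, and the numbers depended on the scaling. That in PMN-MDSC was 8 with DESeq2, 2 with upper-quartile scaling and 2 with library totals, and that in M-MDSC 10 with DESeq2, 10 with upper-quartile scaling and 12 with library totals. Ccr2, Cx3cr1 and Ly86, the partner of the B cell and monocyte receptor CD180 (-2.51 ± 0.41), led in M-MDSC. Members higher in PMN-MDSC against the list's name included the lipopolysaccharide co-receptor Cd14 (2.0 ± 0.27), the integrin Itgax (1.94 ± 0.32), the inhibitory receptor Pirb (1.30 ± 0.19) and Tgfbr2 (1.22 ± 0.18). Cd14 stood at 66.2, 136, 72.2 and 87.2 CPM in PMN-MDSC against 20.1, 28.6, 25.2 and 16.6 CPM in M-MDSC. The groups did not overlap for this gene. Adgre1, which encodes F4/80, did not differ beyond its error (0.06 ± 0.25, adjusted p = 0.85). The number called in M-MDSC ranged from 2 (without PMN-MDSC library 4) to 11 (without PMN-MDSC library 1) and that in PMN-MDSC from 0 (without M-MDSC libraries 1, 3 or 4) to 6 (without PMN-MDSC library 1). Calls of Ly86 (P2, P3, P4, M1 to M4, 0.0021), Cd14 (M1, M3, M4, 0.0015), Itgax (P1 to P4, M1, M3, M4, 0.0024), Pirb (P3, P4, M1 to M4, 0.0025) and Tgfbr2 (P4, M1 to M4, 0.0026) were lost without single libraries.

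Of the secreted and lysosomal proteins of monocytes, 4 of 38 tested members were higher in PMN-MDSC and 13 in M-MDSC (median log2 fold change -0.89), the first share being under the 14.3% of all tested genes. Besides F13a1 and Vcan, Crip1, a small LIM domain protein (-2.92 ± 0.41), led in M-MDSC. Ctss, the protease that trims the invariant chain in antigen-presenting cells, stood at 528, 356, 218 and 266 CPM in PMN-MDSC against 1618, 1741, 1578 and 1515 CPM in M-MDSC (log2 fold change -2.24 ± 0.26 (SE), adjusted p = 6.91e-05). Its groups did not overlap. The members higher in PMN-MDSC were the lysosomal protease Ctsd (2.41 ± 0.27), the complement component C1qc (2.37 ± 0.34), which was also counted among the red pulp macrophage markers, the chemokine Ccl6 (1.89 ± 0.20) and properdin, Cfp (1.69 ± 0.21). Calls of Crip1 (M1, M4, 0.0011), C1qc (M2, M3, M4, 0.0019) and Cfp (M1, 0.001018) were lost without single libraries. The number called in M-MDSC ranged from 7 (without PMN-MDSC library 4 or M-MDSC library 1) to 16 (without PMN-MDSC library 1).

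The Ms4a family of membrane proteins, encoded in a cluster on chromosome 19, was higher in M-MDSC in 6 of 7 tested members (median -3.44), and the remaining one was the B cell gene Ms4a1 (1.42 ± 0.43, adjusted p = 0.016). Ms4a4a stood at 10.4, 7.79, 5.05 and 2.53 CPM in PMN-MDSC against 99.4, 126, 120.2 and 128 CPM in M-MDSC (log2 fold change -4.18 ± 0.32 (SE), adjusted p = 6.77e-06). Ms4a4c differed by -3.91 ± 0.35 and Ms4a6b by -3.67 ± 0.24. Libraries of the 6 genes did not overlap, and reads of near-identical family members can be split between them. Of the genes of patrolling monocytes, 1 of 12 tested members were higher in PMN-MDSC and 2 in M-MDSC (median log2 fold change -0.36), against 14.3% and 8.92% of all tested genes. These few calls ranged from 0 (without PMN-MDSC libraries 2, 3 or 4 or M-MDSC libraries 1, 3 or 4) to 1 (without PMN-MDSC library 1 or M-MDSC library 2) and from 0 (without PMN-MDSC library 4 or M-MDSC library 1) to 3 (without PMN-MDSC library 1). They were Cx3cr1 and Ace, angiotensin-converting enzyme (-2.10 ± 0.31), in M-MDSC and Itgax in PMN-MDSC. Calls of Ace (P3, P4, M1, M3, M4, 0.0018) and Itgax (P1 to P4, M1, M3, M4, 0.0024) were lost without single libraries.

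Of the 8 tested MHC class II genes, 0 were called in either direction (median -0.54; edgeR's quasi-likelihood F-test), and 4 had an unadjusted p under 0.05, 3 of them higher in M-MDSC. DESeq2 called 2 higher in M-MDSC and 1 in PMN-MDSC. This result rested on 1 library. Cd74, the invariant chain, stood at 2757, 915, 752 and 877 CPM in PMN-MDSC against 2853, 1323, 2111 and 2463 CPM in M-MDSC (log2 fold change -0.72 ± 0.42 (SE), adjusted p = 0.16). H2-Eb1, a class II β chain, stood at 631, 163, 134 and 195 CPM in PMN-MDSC against 337, 128, 235 and 300.4 CPM in M-MDSC (log2 fold change 0.17 ± 0.49 (SE), adjusted p = 0.78). In both genes PMN-MDSC library 1 lay well above the other libraries of its group and within or above the range of the M-MDSC. H2-DMa, which loads peptides on class II molecules, stood at 60.1, 27.6, 15.5 and 22.1 CPM in PMN-MDSC against 118, 113, 113 and 111 CPM in M-MDSC (log2 fold change -1.84 ± 0.35 (SE), adjusted p = 0.0014). Without PMN-MDSC library 1, 4 of the 8 genes were called higher in M-MDSC. Cd74 (P1, 9.37e-04), H2-DMa (P1, 6.40e-06), H2-DMb1 (P1, 1.61e-05) and Ciita (P1, 4.70e-05) gained calls without single libraries.

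The mediators by which MDSC suppress T cells lay on the side of the PMN-MDSC where they were called. Of the suppressor mediators, 7 of 15 tested members were higher in PMN-MDSC and 0 in M-MDSC (median log2 fold change 1.14). Members near 0 in M-MDSC, such as Ptgs2 and Nt5e, passed the count limit through their PMN-MDSC counts. With at least 10 counts in every library, 3 of 11 tested members were higher in PMN-MDSC and 0 in M-MDSC. The prostaglandin synthase Ptgs2, also known as COX-2, stood at 38.8, 28.8, 42.3 and 72.0 CPM in PMN-MDSC against 0.933, 0, 0 and 0.607 CPM in M-MDSC (log2 fold change 6.67 ± 0.55 (SE), adjusted p = 1.01e-05). The gene was near 0 in M-MDSC. The adenosine-producing ecto-nucleotidase Nt5e (CD73) stood at 29.3, 21.6, 24.1 and 17.7 CPM in PMN-MDSC against 0.467, 0, 0.360 and 0 CPM in M-MDSC, 145-fold (95% counting interval 39.8 to 1207) higher in PMN-MDSC, and Entpd1 (CD39), which acts before it, differed by 3.32 ± 0.17. Acod1, which makes itaconate, differed by 4.27 ± 0.61. The call of Acod1 was lost without single libraries (M1 to M4, 0.0019). The immune checkpoint ligand PD-L1 (Cd274) stood at 91.5, 125, 72.2 and 87.6 CPM in PMN-MDSC against 44.3, 30.3, 54.0 and 54.3 CPM in M-MDSC (log2 fold change 1.03 ± 0.22 (SE), adjusted p = 0.003), so that its groups did not overlap but the gene was not called. The inducible nitric oxide synthase Nos2, often used as a marker of MDSC, was below the count limit and was detected in 2 PMN-MDSC libraries, at 0, 1.20, 0 and 0.362 CPM in PMN-MDSC against 0, 0, 0 and 0 CPM in M-MDSC.

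The oxidative burst of phagocytes is made by the NADPH oxidase. Of its 7 subunits, 3 of 7 tested members were higher in PMN-MDSC and 0 in M-MDSC (median log2 fold change 1.04). Rac2 (2.08 ± 0.21) and Ncf1 (1.73 ± 0.15) were among those called, whereas the catalytic subunit Cybb was not (-0.59 ± 0.26, adjusted p = 0.071). Among antioxidant genes, 3 of 18 tested members were higher in PMN-MDSC and 1 in M-MDSC (median log2 fold change 0.08). The first share is near the 14.3% of all tested genes, and that number ranged from 1 (without PMN-MDSC library 4 or M-MDSC libraries 1 to 4) to 4 (without PMN-MDSC library 1). The number in M-MDSC was 4 without PMN-MDSC library 1, 0 when any other single library was left out, and 3 with library totals. The median was -0.16 with upper-quartile scaling and -0.30 with library totals. The cystine transporter Slc7a11 stood at 121, 126, 207 and 238 CPM in PMN-MDSC against 16.8, 3.79, 16.2 and 15.6 CPM in M-MDSC (log2 fold change 3.70 ± 0.40 (SE), adjusted p = 5.10e-05), and thioredoxin, Txn1 (1.87 ± 0.27), and glutathione reductase, Gsr (1.24 ± 0.17), followed. Catalase, Cat, was higher in M-MDSC (-1.31 ± 0.21). Calls of Txn1 (P4, M1 to M4, 0.0021), Gsr (P3, P4, M1 to M4, 0.0024) and Cat (P2, P3, P4, M1 to M4, 0.0024) were lost without single libraries.

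Of Toll-like receptors and their adaptors, 3 of 19 tested members were higher in PMN-MDSC and 2 in M-MDSC (median log2 fold change 0.84), shares near the 14.3% and 8.92% of all tested genes. The surface receptors Cd14 and Tlr5, which senses flagellin (1.5 ± 0.23), and the adaptor Tirap (1.82 ± 0.22) were higher in PMN-MDSC, and the endosomal receptors Tlr9 (-2.34 ± 0.34) and Tlr7 (-1.52 ± 0.23) in M-MDSC. The numbers ranged from 1 (without M-MDSC libraries 3 or 4) to 6 (without PMN-MDSC library 1) in PMN-MDSC and from 0 (without M-MDSC libraries 3 or 4) to 4 (without PMN-MDSC library 1) in M-MDSC, and DESeq2 called 7 in PMN-MDSC. Calls of Cd14 (M1, M3, M4, 0.0015), Tlr5 (P4, M2, M3, M4, 0.0023), Tlr9 (P3, P4, M1, M3, M4, 0.0014) and Tlr7 (M2, M3, M4, 0.0013) were lost without single libraries. Of Fc receptor genes, 2 of 6 tested members were higher in PMN-MDSC and 0 in M-MDSC (median log2 fold change 0.35), against 14.3% and 8.92% of all tested genes. The number in M-MDSC was 2 with DESeq2, 2 with upper-quartile scaling and 2 with library totals, and that in PMN-MDSC ranged from 0 (without M-MDSC library 1) to 2 (without PMN-MDSC libraries 1 to 4 or M-MDSC library 2). Fcgr4 (2.55 ± 0.35) and Fcgr3 (1.65 ± 0.20) were higher in PMN-MDSC, and the high-affinity receptor Fcgr1 was not called (-2.54 ± 0.46, adjusted p = 0.0011). Calls of Fcgr4 (M1, M3, M4, 0.0015) and Fcgr3 (M1, 0.0011) were lost without single libraries. Fcgr1 gained a call without single libraries (P1, 7.89e-05).

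Interleukin-1 family and inflammasome genes were called in both directions. In this list, 6 of 15 tested members were higher in PMN-MDSC and 3 in M-MDSC (median log2 fold change 0.20), with the median at -0.04 with upper-quartile scaling and -0.18 with library totals. Those higher in PMN-MDSC were the cytokines and receptors Il1f9, Il1b, Il1rap (3.78 ± 0.18), Il1rn and Il18bp (2.08 ± 0.27) and the sensor Nlrp3 (3.08 ± 0.20). Those higher in M-MDSC were the inflammasome gene Nlrc4 (-2.65 ± 0.34), its partner Naip5 (-1.23 ± 0.18) and the adaptor Pycard (-2.0 ± 0.21). Nlrp3 stood at 322, 528, 367 and 455 CPM in PMN-MDSC against 49.9, 54.3, 38.9 and 53.6 CPM in M-MDSC and Nlrc4 at 10.1, 4.20, 2.72 and 7.24 CPM in PMN-MDSC against 39.7, 29, 45.3 and 44.9 CPM in M-MDSC. The 2 inflammasome genes thus had non-overlapping levels in opposite directions. Calls of Il18bp (M3, 0.001026) and Naip5 (P4, M1, M2, M4, 0.0015) were lost without single libraries.

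Of interferon-stimulated genes, 9 of 38 tested members were higher in PMN-MDSC and 7 in M-MDSC (median log2 fold change -0.24), against 14.3% and 8.92% of all tested genes. The balance turned with the tool and the scaling, since the number in M-MDSC was 11 with DESeq2, 12 with upper-quartile scaling and 13 with library totals, and that in PMN-MDSC 9 with DESeq2, 7 with upper-quartile scaling and 7 with library totals. Rsad2, the antiviral protein viperin, stood at 141, 269, 219 and 218 CPM in PMN-MDSC against 25.2, 14.3, 24.5 and 24.3 CPM in M-MDSC (log2 fold change 3.25 ± 0.25 (SE), adjusted p = 6.17e-06), and Ifit3b (3.07 ± 0.38) and Oasl2 (2.72 ± 0.19) were the next highest in PMN-MDSC. Mx2, a dynamin-like antiviral GTPase, differed by -2.72 ± 0.31 and Ifi209 by -3.40 ± 0.59 in the other direction, both after Ifi211. Their groups did not overlap. The call of Ifi209 was lost without single libraries (P3, P4, M1 to M4, 0.0037). The number of these genes called in M-MDSC ranged from 2 (without PMN-MDSC libraries 3 or 4 or M-MDSC libraries 1, 2 or 3) to 10 (without PMN-MDSC library 1). The Ifi200, Ifit and Oasl genes have close paralogs, between which reads can be split.

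Of apoptosis regulators, 6 of 21 tested members were higher in PMN-MDSC and 2 in M-MDSC (median log2 fold change 0.17), against 14.3% and 8.92% of all tested genes, with the median at -0.08 with upper-quartile scaling and -0.21 with library totals. The numbers were 3 and 4 with each of these scalings, and that in PMN-MDSC ranged from 3 (without PMN-MDSC libraries 3 or 4 or M-MDSC libraries 1, 3 or 4) to 6 (without PMN-MDSC library 1) when 1 library was left out, so that the list was not clear of the background. The death receptor Fas (1.89 ± 0.21), the survival factor Bcl2l1, which encodes BCL-XL (1.79 ± 0.20), and Bid (1.77 ± 0.29) were higher in PMN-MDSC, and Casp8 (-1.23 ± 0.16) and Bmf (-1.16 ± 0.14) in M-MDSC. Of eicosanoid enzymes, 4 of 12 tested members were higher in PMN-MDSC and 0 in M-MDSC (median log2 fold change 0.81), with Alox5, the enzyme of leukotriene synthesis (3.65 ± 0.24), and the prostaglandin receptor Ptger2 (2.73 ± 0.27) after Ptgs2. Among adhesion molecules, 7 of 19 tested members were higher in PMN-MDSC and 2 in M-MDSC (median log2 fold change 0.59), the second share being near the 8.92% of all tested genes. The number in PMN-MDSC was 8 with DESeq2, 5 with upper-quartile scaling and 4 with library totals, and that in M-MDSC 2 with DESeq2, 4 with upper-quartile scaling and 4 with library totals. The junctional molecule Jaml (3.62 ± 0.26) and the selectin ligand Selplg (2.51 ± 0.25) were among those higher in PMN-MDSC, and the integrins Itga1 (-4.81 ± 0.42) and Itgb1 (-1.07 ± 0.14) were the 2 members higher in M-MDSC. Of nuclear envelope genes and genes of extracellular traps, 5 of 15 tested members were higher in PMN-MDSC and 2 in M-MDSC (median log2 fold change 0.13), with the median at -0.13 with upper-quartile scaling and -0.26 with library totals. The number called in PMN-MDSC ranged from 3 (without M-MDSC libraries 1, 2 or 4) to 6 (without PMN-MDSC library 1). The histone deiminase Padi4, which opens chromatin in neutrophil extracellular traps, stood at 435, 637, 541 and 449 CPM in PMN-MDSC against 36.4, 63.1, 41.8 and 40.7 CPM in M-MDSC (log2 fold change 3.50 ± 0.22 (SE), adjusted p = 2.24e-06). Its relative Padi2 stood at 15, 9.59, 3.49 and 6.88 CPM in PMN-MDSC against 117, 90.9, 57.9 and 94.7 CPM in M-MDSC (log2 fold change -3.34 ± 0.38 (SE), adjusted p = 6.55e-05). The 2 deiminases did not overlap between the subsets and had opposite directions. Lbr, the lamin B receptor that shapes lobed nuclei, differed by 2.16 ± 0.16, Sun2 by 2.31 ± 0.23 and the linker histone H1f0 by -2.62 ± 0.31. Calls of Bid (P3, P4, M1, M3, M4, 0.0033) and Itgb1 (P3, P4, M1, 0.0014) were lost without single libraries.

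Genes of protein synthesis and respiration were called mostly in M-MDSC. Of ribosomal protein genes, 0 of 65 tested members were higher in PMN-MDSC and 34 in M-MDSC (median log2 fold change -1.21), for example Rps18 (-1.74 ± 0.19), Rpl10a (-1.69 ± 0.21) and Rpsa (-1.66 ± 0.21), against the median of -0.08 over all genes. Rpl3 stood at 79.4, 54.6, 41.2 and 46.7 CPM in PMN-MDSC against 169, 172, 153 and 169.7 CPM in M-MDSC, with no overlap. Ribosomal protein genes have many processed pseudogenes that share their reads. The number called in M-MDSC ranged from 15 (without PMN-MDSC library 4) to 44 (without PMN-MDSC library 1) and was 42 with DESeq2, 46 with upper-quartile scaling and 55 with library totals. Of oxidative phosphorylation and TCA cycle genes, 0 of 40 tested members were higher in PMN-MDSC and 9 in M-MDSC (median log2 fold change -0.89), led by the ATP synthase subunit Atp5g1 (-2.05 ± 0.33), the complex III subunit Uqcrfs1 (-1.47 ± 0.17) and Idh3b (-1.40 ± 0.15), and that number ranged from 6 (without PMN-MDSC libraries 3 or 4 or M-MDSC library 1) to 14 (without PMN-MDSC library 1) and was 14 with DESeq2, 20 with upper-quartile scaling and 22 with library totals. The mitochondrial genome took 2.63% to 5.27% of the counts in PMN-MDSC and 7.71% to 9.25% in M-MDSC. Genes of cytosolic and mitochondrial rRNA together took 2.67% to 4.98% and 7.20% to 8.86%, the mitochondrial ones being part of both shares. The part of these shares in the calls was not tested. Of genes for ribosome biogenesis and translation, 1 of 21 tested members were higher in PMN-MDSC and 5 in M-MDSC (median log2 fold change -1.08), with Polr1a, the largest subunit of RNA polymerase I, as the one higher in PMN-MDSC (1.76 ± 0.12) and Eif3e (-1.60 ± 0.27), Eef1a1 (-1.48 ± 0.18) and Bop1 (-1.47 ± 0.22) leading in M-MDSC. The number called in M-MDSC ranged from 1 (without PMN-MDSC libraries 3 or 4 or M-MDSC library 1) to 15 (without PMN-MDSC library 1) and was 9 with DESeq2, 8 with upper-quartile scaling and 8 with library totals. Calls of Atp5g1 (P2, P3, P4, 0.0026), Eif3e (P2, P3, P4, M1 to M4, 0.0027) and Bop1 (P3, P4, M1, M2, M3, 0.002) were lost without single libraries. Of cell cycle genes, 3 of 32 tested members were higher in PMN-MDSC and 2 in M-MDSC (median log2 fold change -0.88), and these numbers ranged from 3 (without PMN-MDSC libraries 2 or 4 or M-MDSC libraries 1 to 4) to 5 (without PMN-MDSC library 1) and from 0 (without PMN-MDSC libraries 3 or 4 or M-MDSC libraries 3 or 4) to 4 (without M-MDSC library 2). Both shares were under the 14.3% and 8.92% of all tested genes. The number in M-MDSC was also 8 with DESeq2, 5 with upper-quartile scaling and 9 with library totals, and 11 at an adjusted p under 0.05. Mki67 stood at 206, 22.8, 336 and 192 CPM in PMN-MDSC against 385, 321, 683 and 548 CPM in M-MDSC (log2 fold change -1.35 ± 0.58 (SE), adjusted p = 0.065). PMN-MDSC library 3 lay just above M-MDSC library 2, and PMN-MDSC library 2 had the lowest value. The ribonucleotide reductase Rrm2 (-1.63 ± 0.24) and the helicase subunit Mcm5 (-1.49 ± 0.24) were called in M-MDSC, and Ccnd2, a cyclin of G1 (3.98 ± 0.30), the kinesin Kif23 (2.49 ± 0.25) and the cell cycle inhibitor Cdkn1b (1.87 ± 0.17) in PMN-MDSC. Calls of Rrm2 (P3, P4, M3, M4, 0.0013) and Mcm5 (P3, P4, M1 to M4, 0.0025) were lost without single libraries.

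Of glycolytic genes, 8 of 20 tested members were higher in PMN-MDSC and 0 in M-MDSC (median log2 fold change 0.86), the first number ranging from 5 (without M-MDSC libraries 1, 3 or 4) to 10 (without PMN-MDSC library 1). The glucose transporter Slc2a3 stood at 562, 965, 661 and 691 CPM in PMN-MDSC against 22.9, 18.5, 37.8 and 28.3 CPM in M-MDSC (log2 fold change 4.73 ± 0.27 (SE), adjusted p = 1.76e-06), without overlap. The lactate exporter Slc16a3 differed by 2.72 ± 0.21 and the transporter Slc2a6 by 2.45 ± 0.34. The call of Slc2a6 was lost without single libraries (M1, M3, M4, 0.0015). In glycogen metabolism 2 of 12 tested members were higher in PMN-MDSC and 1 in M-MDSC (median log2 fold change 0.29), shares near the 14.3% and 8.92% of all tested genes. Pygl, the phosphorylase that breaks glycogen down (2.48 ± 0.15), and the branching enzyme Gbe1 (1.42 ± 0.22) were higher in PMN-MDSC and the kinase subunit Phka2 in M-MDSC (-1.09 ± 0.13). Calls of Gbe1 (P4, M1 to M4, 0.0022) and Phka2 (P4, 6.74e-04) were lost without single libraries. Of actin and motility genes, 11 of 33 tested members were higher in PMN-MDSC and 2 in M-MDSC (median log2 fold change 0.68), the second share being under the 8.92% of all tested genes. Selplg, Vasp, which extends actin filaments (2.13 ± 0.19), and the GTPase Rac2 were the highest in PMN-MDSC, and Ahnak (-2.75 ± 0.37) and the thymosin Tmsb10 (-2.46 ± 0.31) were higher in M-MDSC.

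**Figure D4:**
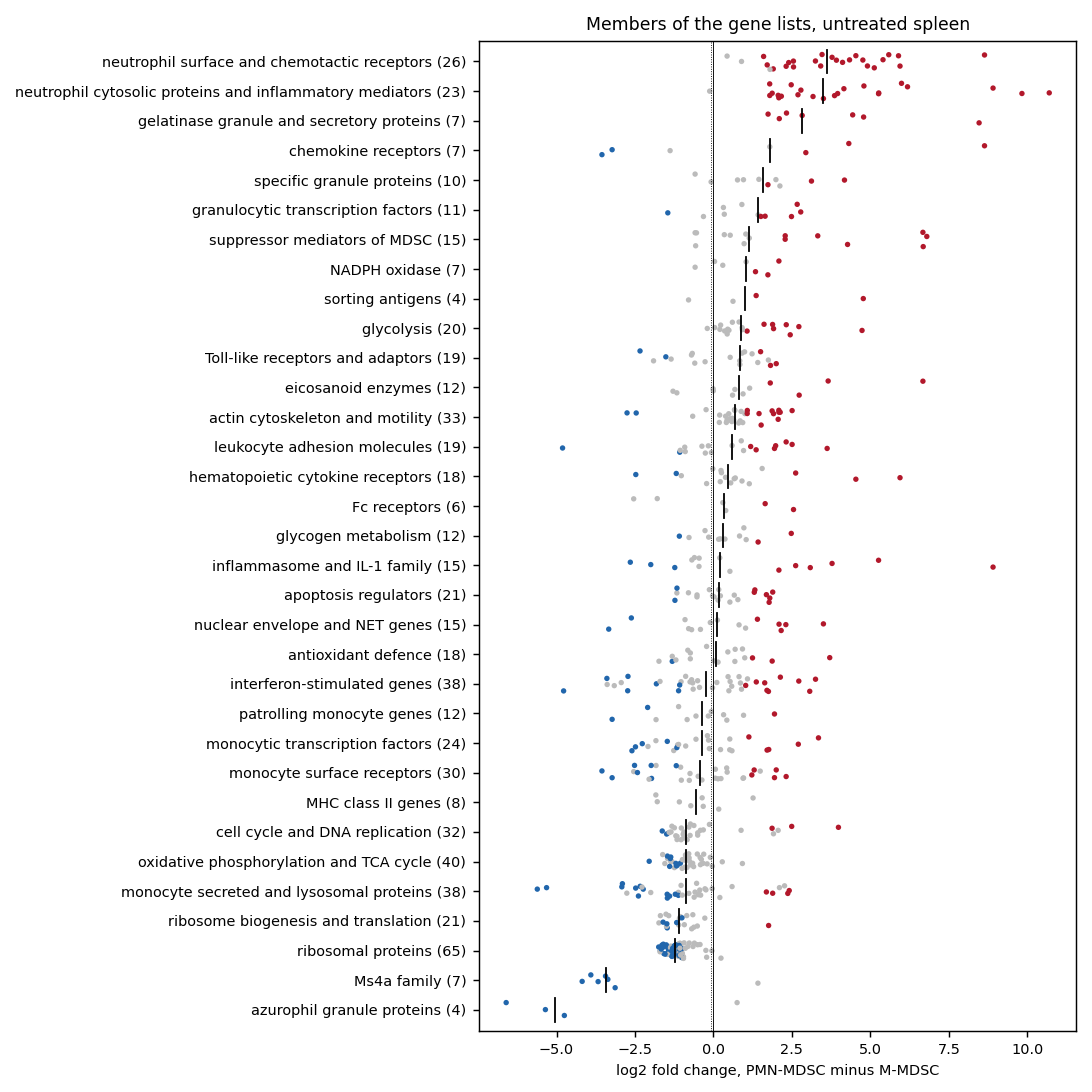
Log2 fold change, PMN-MDSC minus M-MDSC, of the tested members of each gene list, with the number of members in parentheses, members called higher in PMN-MDSC in red, in M-MDSC in blue and not called in grey, the black line marking the list's median and the dotted line the median of all tested genes. Receptors and cytosolic proteins of neutrophils lie furthest right, while azurophil granule and Ms4a genes lie furthest left.

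The same difference between the subsets was then set against that in the tumor, by an interaction test over the 16 libraries of untreated mice at an adjusted p under 0.05 (edgeR's quasi-likelihood F-test). Of 8278 genes tested, 3106 differed (37.5%), of which 1686 had a higher and 1420 a lower ratio of PMN-MDSC to M-MDSC in spleen. The study states a lower minimum for the mean sort purity of tumor fractions than of spleen fractions. The part of purity in these differences was not tested. The 5 genes with the smallest p, Mxd1, Osm, Il1b, Gm44292 and C5ar1, all had a higher ratio of PMN-MDSC to M-MDSC in spleen. Il1b lay at 1520.1 to 3624 CPM in PMN-MDSC of untreated spleen, 48.2 to 72.6 CPM in M-MDSC of untreated spleen, 5742 to 8848 CPM in PMN-MDSC of tumor and 3886 to 6531 CPM in M-MDSC of tumor, and its log2 fold change was 5.35 ± 0.31 in spleen against 0.68 ± 0.26 in tumor (difference 4.68 ± 0.38, adjusted p = 1.15e-06). In tumor both subsets held more of it than either did in spleen. Mxd1, a MYC antagonist of differentiating cells, had log2 fold changes of 5.46 ± 0.26 in spleen against 1.06 ± 0.22 in tumor (difference 4.41 ± 0.32, adjusted p = 5.40e-07). Osm, the cytokine oncostatin M, had 4.54 ± 0.34 in spleen against -0.77 ± 0.25 in tumor (difference 5.31 ± 0.43, adjusted p = 1.15e-06), and C5ar1, the receptor of complement fragment C5a, 4.84 ± 0.28 in spleen against 0.58 ± 0.24 in tumor (difference 4.26 ± 0.36, adjusted p = 1.26e-06). Gm44292 had 6.03 ± 0.35 in spleen against 0.84 ± 0.26 in tumor (difference 5.19 ± 0.43, adjusted p = 1.15e-06).

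The list numbers that follow are to be read against all 8278 genes tested, of which 1686 had a higher and 1420 a lower ratio in spleen. In the neutrophil receptor list 22 of 25 tested members had a higher ratio of PMN-MDSC to M-MDSC in spleen and 0 a lower one (median log2 fold change 3.53 in spleen and 1.16 in tumor). In the actin list 26 of 33 tested members had a higher ratio of PMN-MDSC to M-MDSC in spleen and 1 a lower one (median log2 fold change 0.76 in spleen and -0.18 in tumor), and in glycolysis 15 of 20 tested members had a higher ratio of PMN-MDSC to M-MDSC in spleen and 0 a lower one (median log2 fold change 0.95 in spleen and -0.23 in tumor). In the cell cycle list 4 of 28 tested members had a higher ratio of PMN-MDSC to M-MDSC in spleen and 15 a lower one (median log2 fold change -0.84 in spleen and 0.86 in tumor). Among the suppressor mediators, Ptgs2 had log2 fold changes of 6.70 ± 0.51 in spleen against 0.82 ± 0.29 in tumor (difference 5.88 ± 0.61, adjusted p = 6.13e-06). For Cd274 the difference between the compartments did not pass the test, with 1.12 ± 0.24 in spleen against 1.27 ± 0.23 in tumor (difference -0.15 ± 0.33, adjusted p = 0.74). Mmp8 was higher in PMN-MDSC in spleen, with 4.24 ± 0.57 in spleen against -0.04 ± 0.55 in tumor (difference 4.28 ± 0.76, adjusted p = 6.74e-04). The azurophil gene Mpo had -5.29 ± 1.05 in spleen against -3.63 ± 1.01 in tumor (difference -1.66 ± 1.65, adjusted p = 0.45). Among the monocyte genes, F13a1 was more specific to M-MDSC in spleen, with -5.52 ± 0.55 in spleen against -1.58 ± 0.44 in tumor (difference -3.94 ± 0.68, adjusted p = 4.06e-04). Irf8 moved the same way, with -2.42 ± 0.31 in spleen against -0.29 ± 0.30 in tumor (difference -2.13 ± 0.42, adjusted p = 0.0012). Ly6c2 showed the reverse, with -0.72 ± 0.38 in spleen against -3.97 ± 0.48 in tumor (difference 3.25 ± 0.61, adjusted p = 7.41e-04), so that the transcript of the sorting antigen separated the subsets in tumor and hardly in spleen.

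**Figure D5:**
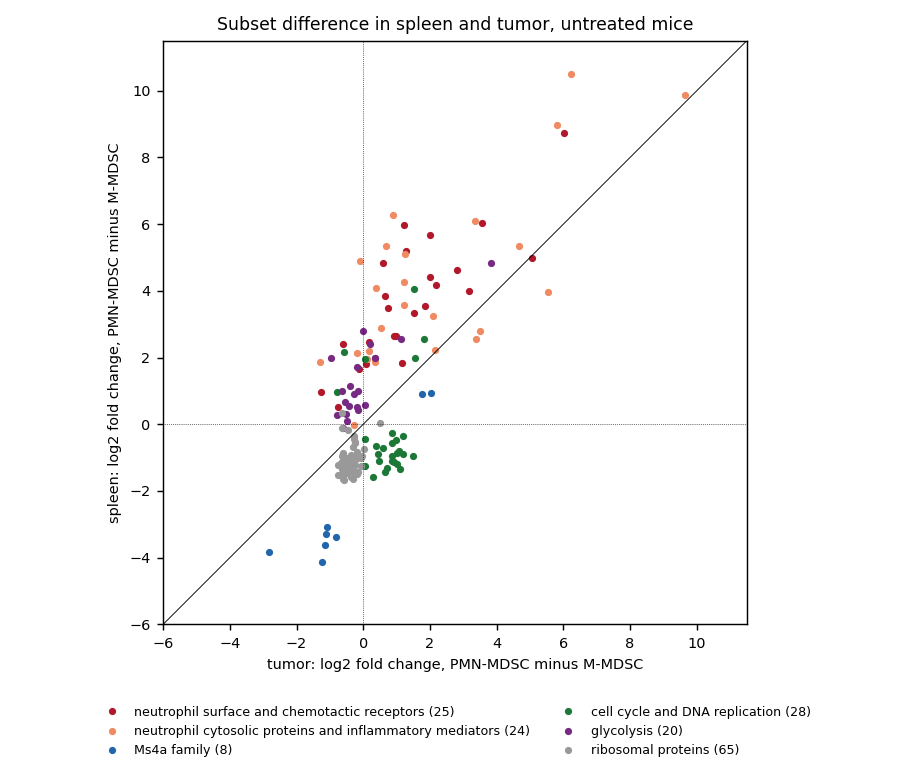
Log2 fold change, PMN-MDSC minus M-MDSC, in untreated spleen (vertical axis) against that in tumor of untreated mice (horizontal axis) for the tested members of 6 gene lists, whose sizes stand in parentheses, with the diagonal marking equal values. Neutrophil receptors lie above the diagonal for 22 of 25 members at an adjusted p under 0.05, and cell cycle genes below it for 15 of 28.

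The difference between the subsets was set in the same way against that in the spleens of mice that received poly(I:C), over 15 spleen libraries. Of 8417 genes tested, 914 differed (10.9%), with 543 showing a higher and 371 a lower ratio of PMN-MDSC to M-MDSC in untreated mice. The 5 genes with the smallest p were Tgm2, Peak1, Sh3pxd2a, Tspan3 and Acvrl1. Tgm2, transglutaminase 2, lay at 204 to 342 CPM in PMN-MDSC of untreated spleen, 35.4 to 39.8 CPM in M-MDSC of untreated spleen, 131 to 157 CPM in PMN-MDSC of treated spleen and 160.2 to 299 CPM in M-MDSC of treated spleen. Its log2 fold change was 2.87 ± 0.21 in untreated mice against -0.56 ± 0.22 in treated mice (difference 3.43 ± 0.30, adjusted p = 9.15e-05). The kinase-like Peak1 had 2.16 ± 0.24 in untreated mice against -1.86 ± 0.28 in treated mice (difference 4.02 ± 0.37, adjusted p = 9.15e-05), the podosome adaptor Sh3pxd2a 0.10 ± 0.25 in untreated mice against -4.21 ± 0.41 in treated mice (difference 4.30 ± 0.49, adjusted p = 5.64e-04) and the tetraspanin Tspan3 -0.47 ± 0.26 in untreated mice against -4.68 ± 0.39 in treated mice (difference 4.21 ± 0.48, adjusted p = 5.64e-04). In PMN-MDSC of treated spleen, Sh3pxd2a lay at 0.554 to 2.44 CPM and Tspan3 at 0.828 to 1.11 CPM. Both were near the floor there, so the size of their differences is uncertain. Acvrl1, a receptor of the TGF-β family, had a lower ratio in untreated mice, with 1.35 ± 0.29 in untreated mice against 5.05 ± 0.34 in treated mice (difference -3.70 ± 0.43, adjusted p = 5.64e-04). The untreated spleen libraries are the same as above, so the 2 interactions share them.

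Here the background is all 8417 genes tested, of which 543 had a higher and 371 a lower ratio in untreated mice. In the red pulp macrophage list 7 of 11 tested members had a higher ratio of PMN-MDSC to M-MDSC in untreated mice and 0 a lower one (median log2 fold change 2.24 in untreated mice and -1.30 in treated mice). Vcam1 had log2 fold changes of 2.38 ± 0.37 in untreated mice against -0.98 ± 0.45 in treated mice (difference 3.36 ± 0.58, adjusted p = 0.0041), Mertk, a receptor for apoptotic cells, of 1.99 ± 0.56 in untreated mice against -3.57 ± 0.74 in treated mice (difference 5.56 ± 0.93, adjusted p = 0.0036) and C1qc of 2.34 ± 0.37 in untreated mice against -1.30 ± 0.43 in treated mice (difference 3.65 ± 0.57, adjusted p = 0.0024). For Slc40a1 the difference did not pass the test, with 4.44 ± 0.40 in untreated mice against 3.65 ± 0.39 in treated mice (difference 0.78 ± 0.51, adjusted p = 0.35). In the interferon-stimulated list 1 of 41 tested members had a higher ratio of PMN-MDSC to M-MDSC in untreated mice and 10 a lower one (median log2 fold change -0.47 in untreated mice and 0.61 in treated mice), and in the neutrophil receptor list 5 of 25 tested members had a higher ratio of PMN-MDSC to M-MDSC in untreated mice and 0 a lower one (median log2 fold change 3.45 in untreated mice and 2.93 in treated mice). In the actin list 0 of 33 tested members had a higher ratio of PMN-MDSC to M-MDSC in untreated mice and 0 a lower one (median log2 fold change 0.66 in untreated mice and 0.93 in treated mice).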

How the data were processed

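The data are RNA-seq libraries of sorted MDSC. The deposited values are raw counts per gene: the authors mapped reads to mm10 and mouse rRNA with ContextMap (BWA as aligner) and counted fragments by strand with featureCounts (Subread 1.4.6-p3, per the labels) on a Gencode annotation. Libraries were amplified in 13 PCR cycles. The name of each column gave its group, and 0 columns were of other series. A library of treated tumors held 10 counts and was left out.

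Counts were tested with edgeR 4.0.16 in R 4.3.3 (TMM scaling, robust quasi-likelihood F-test, two-sided, Benjamini-Hochberg adjustment over all genes tested) on genes whose counts averaged 25 or more, with 4 libraries against 4 and no covariate. Interactions were fitted over the 4 groups concerned. The SE of a log2 fold change is its size divided by the square root of F. CPM use the TMM factors, and FPKM were computed here from counts and summed exon lengths of the annotation on the same build, to which 53274 of 53379 identifiers matched. Intervals of ratios are exact binomial intervals of the counts. A floor of 3 counts over the group was used for genes at 0. No 2 libraries of a group held identical values or differed by so little as sampling noise (chi-square per degree of freedom 6.34 to 32.7). The fit was tested on simulated data. DESeq2 1.42.0, other scalings and filters, a fit over all MDSC groups, a looser threshold and leaving out each library were the alternatives.

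Members and lists were chosen with earlier results of these data known. Named genes are the 10 largest changes in each direction among called genes that do not overlap and reach a mean of 100 CPM, for each list the 3 largest called changes and those against its name, the sorting antigens, genes of the study's question, the 5 smallest p of each interaction, and markers of other cells. Kit, Flt3, Myb, Ly6c1, Adgre1, Wfdc17 and other members not called were added after their values were seen. Some genes that the rule names are not reported here.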

Additional observations from a re-analysis of the deposited data

Results flagged for a closer look

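In a group of 4 libraries, a library was taken as standing apart when its distance to the nearest of the others, as a share of the group's range, exceeded Dixon's 95% critical value, which chance alone gives in about 1 in 20 groups. Named genes gave 343 groups with at least 5 CPM in a library, and 37 of them had such a library. PMN-MDSC library 1 was the highest of its group for Tfec (13.8 CPM against 2.53 to 3.88), Ccr2 (239 CPM against 37.2 to 70.3), Ly86 (71.9 CPM against 18.0 to 22.5), Ms4a6b (29.6 CPM against 15 to 16.7), Cd74 (2757 CPM against 752 to 915), H2-Eb1 (631 CPM against 134 to 195), Ciita (255 CPM against 62.5 to 86.9), Il6st (73.9 CPM against 25.2 to 30.4), Rpsa (477 CPM against 258 to 289), Spic (57.5 CPM against 18.3 to 24.3) and Mertk (84.3 CPM against 19.8 to 28.8). PMN-MDSC library 1 was the lowest of its group for Ccr1 (389 CPM against 601 to 619). PMN-MDSC library 2 was the highest of its group for Bst2 (8.39 CPM against 3.62 to 4.32) and Krt7 (37.2 CPM against 18.3 to 19.5). PMN-MDSC library 3 was the highest of its group for Camp (1294 CPM against 583 to 619.8). PMN-MDSC library 4 was the highest of its group for Peak1 (186 CPM against 144 to 149.5). M-MDSC library 1 was the highest of its group for Slc16a3 (49.5 CPM against 39.2 to 40.8) and Vasp (302 CPM against 209 to 224). M-MDSC library 1 was the lowest of its group for Peak1 (28.5 CPM against 35.8 to 36.7). M-MDSC library 2 was the highest of its group for Ly6c2 (183 CPM against 101 to 114), Mmp8 (109 CPM against 25.5 to 35.5), Fcgr4 (27.8 CPM against 13.5 to 15.6), Fos (98.0 CPM against 18.6 to 30.3), F13a1 (917 CPM against 312 to 385), Ms4a4c (172 CPM against 117 to 124), Rac2 (282 CPM against 235 to 243), Siglecf (10.5 CPM against 3.24 to 4.20) and Arhgef37 (232 CPM against 155 to 168). M-MDSC library 2 was the lowest of its group for Ly86 (177 CPM against 199 to 204), Slc7a11 (3.79 CPM against 15.6 to 16.8), Il1rn (39.5 CPM against 82.4 to 90.9), Rsad2 (14.3 CPM against 24.3 to 25.2) and Gbe1 (12.2 CPM against 18.4 to 19.6). M-MDSC library 3 was the highest of its group for Mpo (91.8 CPM against 31.7 to 38.9) and Tirap (48.6 CPM against 28.6 to 30.8). M-MDSC library 3 was the lowest of its group for Rpl3 (153 CPM against 169 to 172). M-MDSC library 4 was the lowest of its group for Uqcrfs1 (50.6 CPM against 61.2 to 63.0). No cause of these values was tested.

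The difference between the subsets, PMN-MDSC minus M-MDSC on the log2 scale, was not the same in spleen and tumor of untreated mice for C5ar1 (4.26), F13a1 (-3.94), Gm44292 (5.19), Il1b (4.68), Irf8 (-2.13), Ly6c2 (3.25), Mmp8 (4.28), Mxd1 (4.41), Osm (5.31) and Ptgs2 (5.88), with spleen minus tumor in parentheses (interaction test, edgeR). Between untreated and poly(I:C)-treated spleens it differed for Acvrl1 (-3.70), C1qc (3.65), Mertk (5.56), Peak1 (4.02), Sh3pxd2a (4.30), Tgm2 (3.43), Tspan3 (4.21) and Vcam1 (3.36), with untreated minus treated in parentheses (interaction test, edgeR).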

How the results depend on the processing

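The libraries of untreated spleens held 1896132 to 4200907 counts, so genes under the limit of 25 counts were not tested, and their absence from the calls is no statement about them. No paired analysis was possible because the columns of the count table carry running numbers of libraries in place of the mouse numbers of the labels, and columns were not matched to mice by their order. The number of genes called higher in PMN-MDSC was 1228, and 2092 without the filter on low counts, when 28696 genes were tested. It was 926 to 1590 under the other tools, scalings and filters apart from library totals alone, which gave 829, and 854 to 1368 when 1 library was left out. The number higher in M-MDSC was less stable. It was 765, and 1345 with DESeq2, 1296 with upper-quartile scaling, 1527 with library totals alone, 1813 without the filter and 1741 at an adjusted p under 0.05. Leaving out 1 library gave 290 to 1418, the higher end without PMN-MDSC library 1, and 394 without PMN-MDSC library 3, 290 without PMN-MDSC library 4 and 330, 383, 365 and 390 without M-MDSC libraries 1 to 4. Of 268 called genes that are list members or named, 164 were called in every one of these fits and 0 changed direction. For the difference between spleen and tumor, 1686 genes had a higher and 1420 a lower ratio in spleen, against 1076 and 2304 with upper-quartile scaling, and 1370 to 1862 and 1078 to 1854 when 1 library was left out. For the difference by treatment, 543 had a higher ratio in untreated mice, against 860 with DESeq2 and 1186 without the filter, and 371 a lower one, against 200 with upper-quartile scaling. Leaving out 1 library gave 336 to 888 and 197 to 573, with 841 and 573 without treated PMN-MDSC library 1, 888 and 197 without untreated PMN-MDSC library 3, 336 and 234 without treated PMN-MDSC library 3, and lower counts of 246 and 245 in the second number without untreated M-MDSC libraries 3 and 4. The cause of these changes was not tested.

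Single genes changed sign only where they were not called. In log2 fold change, Adgre1 was at -0.18 with upper-quartile scaling, -0.31 with library totals, -0.0090 with at least 10 counts in every library and between -0.080 and 0.27 when 1 library was left out. H2-Eb1 was at -0.075 and -0.18 with these scalings and between -0.60 and 0.42 without 1 library, the lowest without PMN-MDSC library 1. Spic was at -0.10 and -0.23 and between -0.37 and 0.36, Sh3pxd2a at -0.12 and -0.25 and between -0.092 and 0.31. Flt3 was at -0.12 with library totals and between -0.0080 and 0.46 without 1 library, and Wfdc17 between -0.41 and 0.15. With at least 10 counts in every library the median of the antioxidant genes was -0.06 and that of the interferon-stimulated genes 0.22, and with library totals that of the Fc receptors was -0.02. Of the azurophil genes, the limit of 10 counts in every library left Serpinb1a alone. With the looser letters GAGGAA, 37.1% of promoters of genes higher in PMN-MDSC, 34.5% of those higher in M-MDSC and 31.9% of all held a match, and with TTNCNNAA 39.2%, 34.7% and 35.8%.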
